A study of Homo sapiens with 16 samples.

Results

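The Nutlin-3a response of control-siRNA cells was the difference between 4 libraries treated with Nutlin-3a and 4 treated with its solvent DMSO, 8 of the 16 libraries of the series, chosen by their labels. All 8 were poly(A) RNA of U2OS, a human osteosarcoma cell line with functional p53, transfected with the siRNA labelled siControl and then kept for 24 h in DMSO alone or in 10 µM Nutlin-3a. The other 8 libraries received the same treatments with an siRNA against the transcription factor RFX7 (siRFX7), which siControl cells keep. All groups are 1 cell line, and the labels do not say whether the 4 libraries of a group were separate cultures, so p-values measure the spread between these libraries, which may be technical. The values came from the authors' own comparison of both groups, and no value of a single library was analysed here. Errors are therefore the authors' standard errors (SE), and whether the libraries of the groups overlapped could not be shown.

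p53 is a transcription factor that the ubiquitin ligase MDM2 binds and sends for degradation. Nutlin-3a occupies the p53 pocket of MDM2, so p53 accumulates without DNA damage and activates genes that carry p53 response elements. One of these genes is CDKN1A, which encodes the cyclin-dependent kinase inhibitor p21. Active p21 leaves the RB-family pocket proteins unphosphorylated, and the DREAM and RB-E2F complexes then hold down cell cycle genes through CHR and E2F elements in their promoters.

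The markers of p53 activation carried the label of the treatment. CDKN1A (chr6:36676460-36687339, plus strand, GENCODE 29 on GRCh38) stood at 4108 normalised counts per library with DMSO and 38869.7 with Nutlin-3a. MDM2 (chr12:68808176-68850686, plus strand) stood at 4710 and 34905 normalised counts. These group levels were worked out from the base mean, the mean normalised count over the 8 libraries, and the log2 fold change. In the authors' deposited table the log2 fold change was 3.24 ± 0.04 (SE) for CDKN1A and 2.89 ± 0.04 for MDM2. The signs of both genes also served to read the direction of the table as Nutlin-3a over DMSO, so their rise is no separate finding. Of the markers of the cell line, the mesenchymal genes VIM, COL1A1 and SPARC had base means of 84576, 39039 and 31574. RUNX2, a transcription factor of the bone lineage, had a base mean of 432. Of 14 mesenchymal and bone-lineage markers, 11 were in the table, with a median base mean of 432, and TWIST1, IBSP and SP7 were not. The epithelial keratin genes KRT8 and KRT18 had base means of 24067 and 12140.3. However, only 7 of 12 epithelial markers were in the table, with a median base mean of 191. KRT5, KRT19, CLDN3, CLDN7 and GRHL2 were not in it. Of 10 blood cell markers, 6 were in the table and none was called, and the pan-leukocyte gene PTPRC had a base mean of 5.21.

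A large part of the transcriptome moved, mostly by little. The authors' deposited table held 23353 genes, and 8853 of them (37.9%) were called at an adjusted p under 0.05 (DESeq2, Benjamini-Hochberg). Of all genes, 4273 (18.3%) were higher and 4580 (19.6%) were lower with Nutlin-3a. The median change of the called genes was 0.34 in size on the log2 scale, and the median of all genes was 0.01. Large changes were lopsided: 761 genes (3.26%) were higher by at least 1 on the log2 scale, a doubling, and 168 (0.719%) were lower by at least 1. Among the called genes, 163 were higher by 3 or more and 1 was lower by 3 or more. For 76 of those 163, the DMSO level was below 3 normalised counts over the 4 libraries together, so their fitted size says little. Which direction held the larger count depended on the scaling: with both groups set to equal summed levels, a shift of 0.04, 4989 genes were called higher and 3859 lower.

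**Figure D1:**
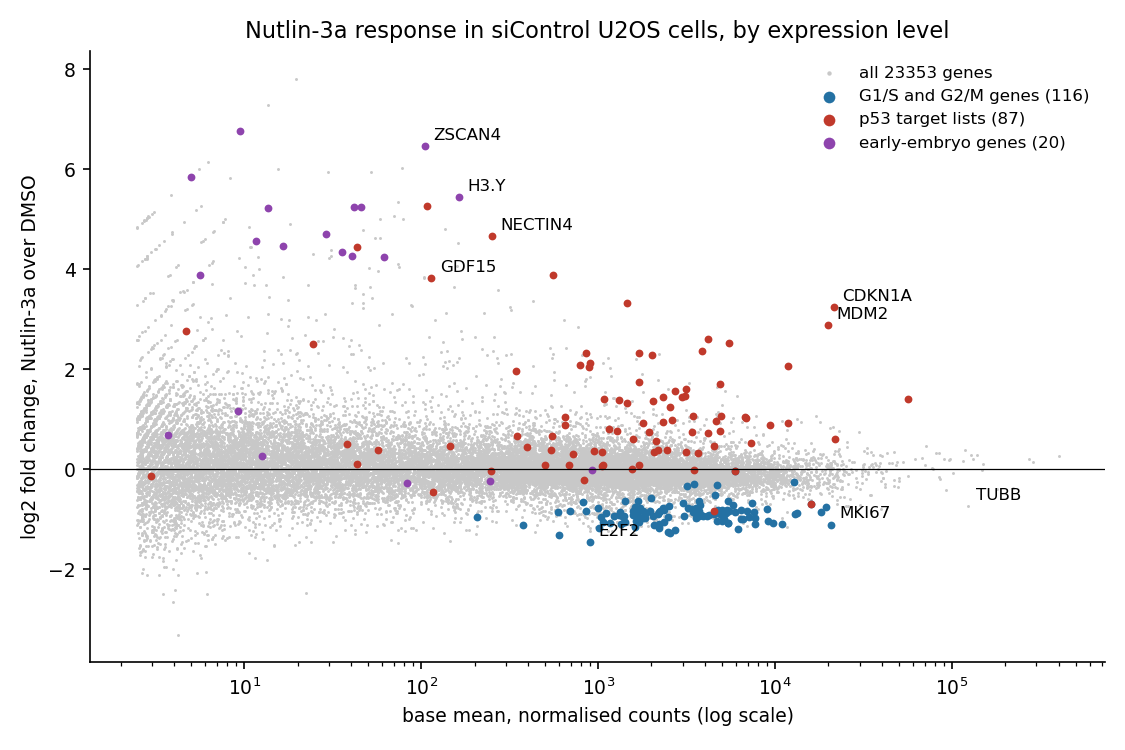
Each point is a gene, with the base mean in normalised counts on a log axis and the log2 fold change of Nutlin-3a over DMSO on the vertical axis. The p53 target lists (red) reach from -0.84 to 5.27, the G1/S and G2/M genes (blue) lie between -1.45 and -0.04, and the early-embryo genes (purple) are high at low base means.

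Of 91 genes on 6 lists of known p53 targets and p53 regulators, 87 were in the authors' deposited table, 80 of them at base means of 100 or more. Of these 87, 70 were called higher, 4 lower and 13 neither, against 18.3% higher and 19.6% lower among all genes. Their median log2 fold change was 0.93, and 39 were higher by at least 1. RPRM, SPATA18, TNFRSF10A and TNFRSF10D were not among the genes tested. Summed over the 87 genes, the level was 205807 normalised counts per library with DMSO and 451456 with Nutlin-3a.

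The p53 feedback genes, which restrain or tune p53, included MDM2 itself and a gene as steep as CDKN1A. Of 11 genes, 7 were called higher and 1 lower. TP53INP1, a p53 cofactor linked to autophagy and cell death, went from 265 to 2659 normalised counts, a log2 fold change of 3.33 ± 0.07 in the authors' deposited table. The RNA-binding protein gene ZMAT3, the phosphatase gene PPM1D that dampens p53 signalling, and the cyclin gene CCNG1 rose by 1.72, 1.02 and 1.06 in the authors' deposited table. MDM4, the partner of MDM2 that masks the p53 transactivation domain, was not called there, at 0.02 ± 0.05, nor were the ubiquitin ligase genes COP1 and RCHY1, both at 0.09.

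All 12 measured genes of cell cycle arrest were called, 11 of them higher, with a median of 0.76. The secreted cytokine gene GDF15 rose from 15.01 to 213 normalised counts and BTG2, an antiproliferative factor, from 1180 to 7205. Their log2 fold changes were 3.83 ± 0.23 and 2.61 ± 0.04 in the authors' deposited table. At the low end, E2F7, an E2F-family repressor, rose by 0.33, and SFN (14-3-3 sigma), which already stood at 17325 normalised counts, rose by 0.61 in the authors' deposited table. GTSE1, a G2-phase protein that restrains p53, fell by 0.84 ± 0.04 there. Thus CDKN1A had both a high starting level and a steep rise, whereas GDF15 was steep from a low level.

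Of 14 apoptosis genes, 11 were called higher and none lower, with a median of 0.45. The death receptor gene FAS rose from 567 to 2830 normalised counts, and BBC3, which encodes the BH3-only protein PUMA, from 337 to 1464. In the authors' deposited table, these are log2 fold changes of 2.32 ± 0.06 and 2.12 ± 0.07. The pore-forming BAX rose by 0.97 and the death receptor gene TNFRSF10B by 1.07, whereas PMAIP1, which encodes NOXA, rose by only 0.34 in the authors' deposited table. BID, AIFM2 and TNFRSF10C were not called, at 0.06, 0.09 and 0.12. The group was therefore uneven, with the steepest members at FAS and BBC3.

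Among 9 DNA repair genes, 7 were called higher, with a median of 0.76. RRM2B, the p53-inducible subunit of ribonucleotide reductase, rose from 4563 to 19116 normalised counts, at 2.07 ± 0.05 in the authors' deposited table. The damage sensors of nucleotide excision repair DDB2 and XPC rose by 1.47 and 1.07 there, and the translesion polymerase gene POLH by 0.99. PCNA, the sliding clamp of DNA polymerases and a member of both the p53 repair list and the G1/S list, was at -0.04 ± 0.04 and not called, with 6010 and 5842 normalised counts.

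Of 17 genes of metabolism, redox control and the lysosome, 13 were called higher and 1 lower, with a median of 0.89. The mitochondrial ferredoxin reductase gene FDXR rose from 1247 to 6456 normalised counts and the mTORC1 inhibitor SESN1 from 299 to 1273, at 2.37 ± 0.04 and 2.09 ± 0.07 in the authors' deposited table. GLS2, a glutaminase, had the highest log2 fold change of the group, 2.77 ± 0.88, but stood at 1.196 and 8.13 normalised counts. PRODH, a proline dehydrogenase, was also rare, at 7.32 and 41.7 normalised counts. CPT1C fell by 0.45 ± 0.15 in the authors' deposited table (adjusted p = 0.00755, DESeq2). The cytochrome c oxidase assembly gene SCO2 was not called, at -0.13.

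The list of signalling, adhesion and secretion genes had the highest median of the 6, 1.24, with 24 of 27 members called higher and 1 lower. GRHL3, an epithelial transcription factor, rose from 5.435 to 210 normalised counts and the cell adhesion gene NECTIN4 from 19.2 to 486. Their log2 fold changes were 5.27 ± 0.33 and 4.66 ± 0.18 in the authors' deposited table. INPP5D, which encodes the phosphatidylinositol phosphatase SHIP1, rose from 70.2 to 1038 normalised counts. The matrix glycoprotein gene THBS1 fell by 0.70 ± 0.05 in the authors' deposited table.

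**Figure D2:**
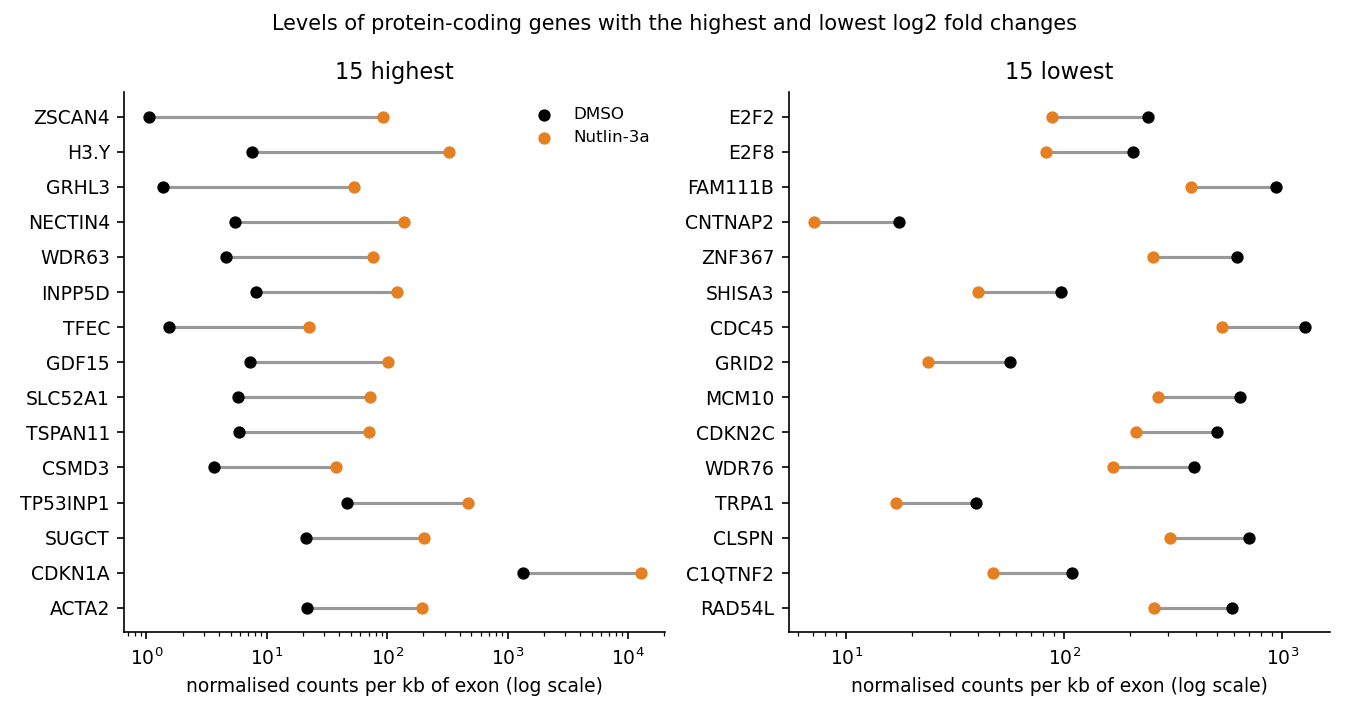
Levels with DMSO (black) and with Nutlin-3a (orange), in normalised counts per kb of exon on a log axis, for the 15 protein-coding genes with the highest and the 15 with the lowest log2 fold changes among called genes at base means of 100 or more. Only CDKN1A among the 15 highest stood above 1000 per kb with DMSO, and the 15 lowest kept between 0.365 (E2F2) and 0.435 (RAD54L) of their DMSO level.

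The 15 highest protein-coding genes, leaving out genes known only by a clone name, reached beyond the p53 lists. Among called genes at base means of 100 or more, they ran from ZSCAN4 (6.46 ± 0.48) to ACTA2 (3.18 ± 0.12) in the authors' deposited table. Among them were TFEC, a transcription factor of the MiT family (3.85 ± 0.23), the riboflavin transporter gene SLC52A1 (3.66 ± 0.18), WDR63, a dynein-associated protein gene (4.07 ± 0.20), and the smooth muscle actin gene ACTA2. The tetraspanin gene TSPAN11, CSMD3 and SUGCT were at 3.58, 3.37 and 3.24 in the authors' deposited table. Per kb of exon, 13 of the 15 stood below 25 normalised counts with DMSO, whereas TP53INP1 stood at 46.6 and CDKN1A at 1347.

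A p53 response element was looked for in the promoters that RefSeq gives for GRCh38.p14, 250 bases before to 50 after the gene start. It was written as 2 adjoining 10-base units with the core of each intact and with at most 3 mismatches elsewhere. This tolerance was chosen after the data were seen, since at 1 mismatch only 1 of 9213 promoters held a match. At 3 mismatches 28 promoters (0.304%) did, among them 4 of the 152 genes higher by at least 1 and none of the 536 lower by at least 0.5. The best known p53 elements of many genes lie outside this window, and no match here says only that these letters are absent from it. The matches of 4 genes are shown because they lie at the start of genes that rose. Whether a match serves the gene named or a neighbouring gene was not tested. The matched 20 bases are in capitals, and the gene's strand is read 5′ to 3′. GDF15 is chr19:18386181-18386207 (plus strand, 24 to 50 bases after the start), ACTA2 chr10:88991304-88991333 (minus strand, 5 to 34 bases after the start), RPS27L chr15:63157522-63157551 (minus strand, 74 to 45 bases before it), and AEN chr15:88621301-88621330 (plus strand, 39 to 10 bases before it).
GDF15: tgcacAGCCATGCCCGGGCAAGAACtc
ACTA2: tggctTGGCTTGTCAGGGCTTGTCCaggag
RPS27L: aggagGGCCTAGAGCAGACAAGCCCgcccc
AEN: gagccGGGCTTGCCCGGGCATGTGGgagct
ACTA2 and AEN had 2 mismatches, and GDF15 and RPS27L had 3. In the authors' deposited table the 4 genes were higher by 3.83 (GDF15), 3.18 (ACTA2), 1.73 (RPS27L, a ribosomal protein paralogue) and 0.46 (AEN, an apoptosis-enhancing nuclease). The other matches included DOCK8 at 1.73 and MVP at 0.93 there. Of all 28 matched genes, 14 were within 0.25 of no change, and 2, MAT1A and RPL36A, fell by 0.38 and 0.34. VDAC2, ADO, PRPF6 and ALG8 were also called lower, by 0.12 to 0.18. The genes shown are therefore a choice of those that rose.

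Cell cycle genes fell together and by a similar amount. All 116 genes of the G1/S and G2/M lists were in the authors' deposited table, each at a base mean of 100 or more, and 115 of them were called lower, against 19.6% of all genes. Their median log2 fold change was -0.89, and 30 were lower by at least 1. PCNA was the one gene not called. Their summed level went from 624448 to 344540 normalised counts per library. Bulk RNA does not tell fewer cells in a cycle phase from less RNA per cell.

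Of the 53 G1/S and replication genes, 52 fell, with a median of -0.92. The transcription factor gene E2F2 (chr1:23506430-23531220, minus strand) fell from 1315 to 480 normalised counts and E2F8, a repressor of the same family, from 854 to 342. Their log2 fold changes, -1.45 ± 0.07 and -1.32 ± 0.07, were the lowest among protein-coding genes of base mean 100 or more in the authors' deposited table. The replicative helicase and helicase activation genes CDC45, MCM10 and MCM2 were at -1.27, -1.25 and -1.18 there. TYMS, thymidylate synthase, fell by only 0.25, and the replicative ligase gene LIG1 by 0.29.

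All 63 G2/M genes fell, within a narrower range, from -1.11 for MKI67, the Ki-67 proliferation marker, to -0.31 for the spindle checkpoint gene BUB3 in the authors' deposited table. MKI67 went from 28369 to 13179.8 normalised counts. The mitotic kinase genes PLK1 and CDK1 fell by 0.94 ± 0.04 and 0.91 ± 0.06 in the authors' deposited table. CCNB1 and CCNB2, the mitotic B-type cyclins, fell by 0.68 and 0.63 there, less than the median of -0.88 of the list.

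Of 28 genes of homologous recombination, the Fanconi pathway and the checkpoint, 27 were called lower, against 19.6% of all genes. Their median was -0.91. RAD54L, a DNA translocase gene of recombination, went from 1897 to 826 normalised counts. The tumour suppressor gene BRCA2 fell by 1.05 on the log2 scale in the authors' deposited table. ATR, the checkpoint kinase gene, was the one not called (-0.11 ± 0.06). Repair genes thus moved both ways, with the excision repair genes of the p53 list higher and the recombination genes lower.

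The regulators of these programs were themselves uneven. Of 22 E2F, pocket protein, DREAM and MMB factors, 15 were called lower and 2 higher. Their median base mean was 1304, and 35.7% and 23.9% of all genes at 1000 to 3000 were called lower and higher. MYBL2 and FOXM1, the activators of the mitotic genes, fell by 0.97 and 0.70 in the authors' deposited table, and RBL1, which encodes p107, by 0.90. RBL2, which encodes the pocket protein p130 of DREAM, rose by 0.22 ± 0.04, and RB1 fell by 0.22 ± 0.05 there. E2F3, E2F5 and E2F6 were not called.

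Promoters of the cell cycle genes were rich in motifs for which such genes are known. CHR was searched as TTTGAA or TTCGAA, the E2F element as TTCCCGC or TTGGCGC, and the CCAAT box as CCAAT, each on both strands. None of these motifs contains another, but a CCAAT box on the opposite strand can share 4 letters with TTGGCGC. Promoters were matched for 9213 of the 11541 coding genes at base means of 100 or more. Of 53 G2/M promoters matched, 41 (77.4%) held a CHR and 40 (75.5%) a CCAAT box, against 10.96% and 36.5% of all 9213 promoters. In 44 G1/S promoters matched, 28 (63.6%) held an E2F element, against 15.6% of all. Of the CHR matches of G2/M genes, 50.9% lay in the last 100 bases before the start, against 24.1% of all CHR matches. The promoters of 4 G2/M genes are shown for the spacing of CHR and CCAAT, both in capitals, on the gene's own strand. CCNB2 is chr15:59105011-59105131, PLK1 chr16:23678804-23678874, CDC20 chr1:43358871-43358936 and CDK1 chr10:60778161-60778191, all on the plus strand.
CCNB2: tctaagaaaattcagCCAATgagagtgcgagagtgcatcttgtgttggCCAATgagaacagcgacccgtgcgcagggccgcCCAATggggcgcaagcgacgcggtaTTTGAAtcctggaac
PLK1: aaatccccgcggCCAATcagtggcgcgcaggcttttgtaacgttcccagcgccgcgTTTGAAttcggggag
CDC20: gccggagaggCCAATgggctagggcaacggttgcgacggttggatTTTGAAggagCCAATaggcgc
CDK1: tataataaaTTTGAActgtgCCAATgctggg
The CHR of CCNB2 and of PLK1 began at position -29 from the start, that of CDC20 shown here at -65 and that of CDK1 at -161. CCNB2 had 3 CCAAT boxes upstream of its CHR within the stretch shown. For the E2F element, in capitals with any CCAAT box, 3 genes among the lowest are shown. E2F1 is chr20:33686386-33686465, E2F2 chr1:23531253-23531293 and ZNF367 chr9:96418371-96418410, all on the minus strand.
E2F1: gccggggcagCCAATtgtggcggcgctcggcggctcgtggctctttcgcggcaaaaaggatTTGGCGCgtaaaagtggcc
E2F2: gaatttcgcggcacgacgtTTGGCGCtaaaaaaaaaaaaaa
ZNF367: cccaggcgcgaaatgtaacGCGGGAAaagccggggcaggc
In ZNF367 the match lies on the opposite strand. E2F1 was at -1.17 ± 0.04 and ZNF367, a zinc finger gene, at -1.29 ± 0.06 in the authors' deposited table.

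Over all 9213 genes, the shares of promoters with these motifs varied with the size of the response. The E2F element was in 49.2% of promoters of genes lower by at least 1, in 28% of those lower by 0.5 to 1, in 13.9% of those within 0.25, and in 5.71% of those higher by at least 2. For the CHR the shares were 29.5%, 29.9%, 9.60% and 11.4%, and for CCAAT 59.0%, 50.5%, 35.1% and 34.3%. The highest bin held only 35 promoters, so its shares are coarse. An E2F or a CHR was present in 68.9% of the promoters of genes lower by at least 1 and in 24.8% of all. A match is a description of letters, and binding was not measured.

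**Figure D3:**
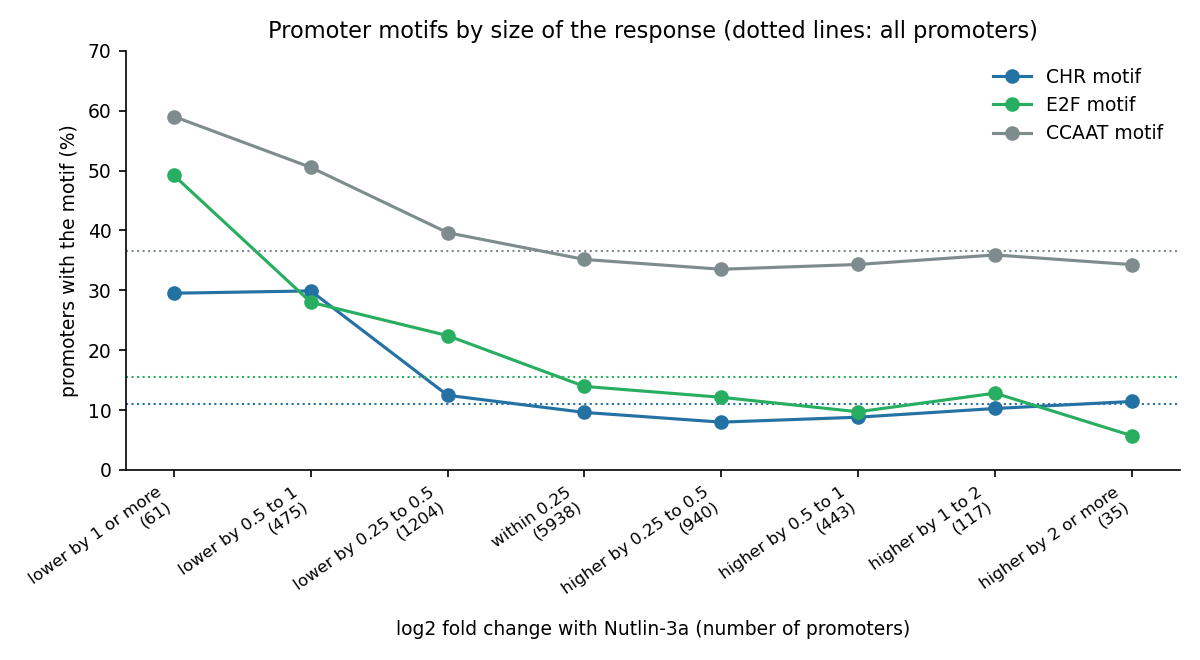
Share of promoters with a CHR, E2F or CCAAT motif, in percent, by the log2 fold change with Nutlin-3a, with the number of promoters under each bin and the share over all promoters as dotted lines. The E2F share falls from 49.2% in the lowest bin to 5.71% in the highest, whereas the CHR share is near its overall level from the unchanged genes upward.

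Some genes of the early embryo were among the steepest. They are known targets of DUX4, a transcription factor active at zygotic genome activation and silent in most adult cells. Of 30 genes on this list, which was written with earlier results of these data known, 20 were in the authors' deposited table and 14 of these were called higher. The 20 had a median DMSO level of 2.59 normalised counts, and the lowest base mean in the table was 2.46. A gene near 0 with DMSO passes such a limit only through the Nutlin-3a libraries, so this count supports no direction for the list. ZSCAN4, a telomere-linked zinc finger gene (chr19:57668935-57679152, plus strand), went from 2.37 to 208 normalised counts, at 6.46 ± 0.48 in the authors' deposited table. H3.Y, a primate histone H3 variant, went from 7.31 to 318.5 normalised counts (5.45 ± 0.31), and TRIM43 from 6.15 to 117.5. Only 4 of the 20 reached a base mean of 100, and 4 had a DMSO level below 3 normalised counts over the 4 libraries. DUX4-induced genes on the list that were not called included ZNF296 and HSPA1L, at -0.24 and -0.27. Many of these genes belong to families of near-identical copies (TRIM43 and TRIM43B, the PRAMEF genes), and how the counting split their reads is not given in the sources used here.

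The steepest rises started from low levels and the falls from high ones. Over coding genes at base means of 100 or more, the median DMSO level was 526 normalised counts per kb of exon for the 79 genes lower by at least 1, and 267 for the 7338 genes within 0.25. It was 62.1 for the 153 genes higher by 1 to 2 and 21.4 for the 54 higher by at least 2. With Nutlin-3a, the same bins stood at 248, 264, 151 and 154 per kb, closer to each other. The bins were cut on the log2 fold change that links both levels, so they are a description only.

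The genes higher by at least 1 made up 0.557% of the summed level with DMSO and 1.69% with Nutlin-3a. All called-higher genes went from 20.2% to 26.4%, and all called-lower genes from 44.6% to 36.7%. The median base mean was 592 for called-higher and 1576 for called-lower genes. The share called higher was 29% at base means of 300 to 1000 and 19.2% at 3000 to 10000, whereas the share called lower went from 24.7% to 49.6%. Below a base mean of 10, 4.34% were called higher and 0.436% lower. SEs are larger at low counts, so these shares also follow the precision of the test.

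In normalised counts, cytoskeletal genes led the losses. TUBB, a beta-tubulin gene, fell from 153893 to 92640.1 normalised counts, with a log2 fold change of -0.73 ± 0.04 in the authors' deposited table. TUBA1B and TUBB4B, other tubulin genes, fell by 0.80 and 0.74 there, and the actin genes ACTB and ACTG1 by 0.38 and 0.40. The chaperone gene HSPA8, the importin gene KPNB1, the linker histone gene H1F0, the reductase gene DHRS2 and MKI67 completed the 10 largest losses. On the side of the gains, the largest in counts was MT-ND4 of the mitochondrial genome, from 363850 to 437165 normalised counts, which was not called. The glycolytic enzyme gene GAPDH gained 30778 normalised counts, with a log2 fold change of only 0.16 ± 0.03 in the authors' deposited table.

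Mitochondrial transcripts varied more than other abundant RNAs. The 13 protein genes of the mitochondrial genome were all higher in level, at 0.06 to 0.39, and none was called. Their median SE was 0.16 in the authors' deposited table, against 0.04 for the other 512 genes at base means of 10000 or more. MT-RNR2, the large mitochondrial ribosomal RNA, was called higher, at 0.46 ± 0.13 (adjusted p = 0.0014, DESeq2). Of 80 nuclear genes of oxidative phosphorylation, 11 were called higher and 9 lower, with a median of 0.00, and 21 and 4 with equal summed levels. Their median base mean was 2186, and 23.9% and 35.7% of all genes at 1000 to 3000 were called higher and lower.

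**Figure D4:**
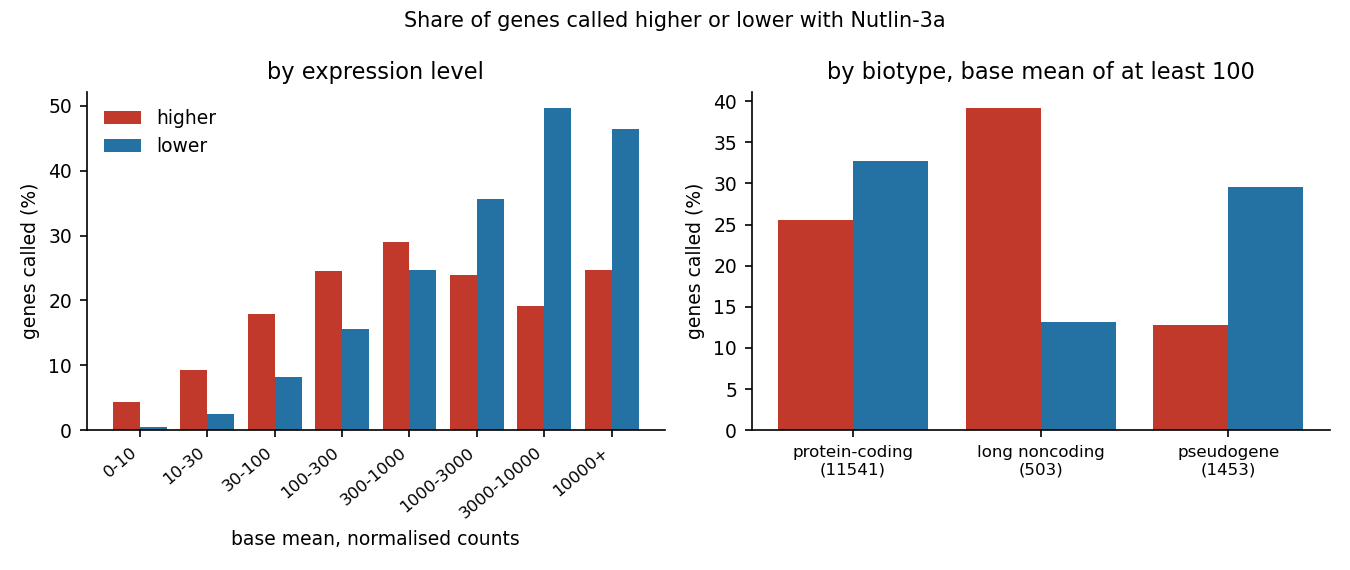
Percent of genes called higher (red) or lower (blue), on the left by base mean and on the right by biotype at base means of 100 or more. Lower calls pass higher calls from a base mean of 1000 upward, and long noncoding genes show 39.2% higher against 13.1% lower.

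Long noncoding RNAs leaned upward. At base means of 100 or more, 197 of 503 (39.2%) were called higher and 66 (13.1%) lower, with a median of 0.13. Protein-coding genes at the same limit were higher in 25.6% and lower in 32.7% of 11541, and pseudogenes in 12.7% and 29.6% of 1453. The median base mean was 229 for these long noncoding RNAs and 1292 for the coding genes, so their levels were unlike. Of all genes at base means of 100 to 300, 24.6% were called higher and 15.6% lower. The lower share of the long noncoding RNAs was thus near that of genes at such levels. Over all 3795 long noncoding genes, 226 were higher by at least 1, of which 38 had a DMSO level below 3 normalised counts over the 4 libraries.

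The steepest long noncoding RNA of base mean 100 or more was UNC5B-AS1 (chr10:71217224-71218228, minus strand), from 13.7 to 193 normalised counts, at 3.82 ± 0.24 in the authors' deposited table. FLG-AS1, GAS6-AS1, PURPL and LINC01411 followed, at 2.85, 2.31, 2.29 and 2.22 there. PURPL is a p53-induced RNA that is known to restrain p53. UNC5B, the netrin receptor gene overlapped by UNC5B-AS1, rose by 0.87 ± 0.08, whereas GAS6, overlapped by GAS6-AS1, fell by 0.28 ± 0.05 in the authors' deposited table. The sources used here do not say whether counting used the strand, and without it, reads of overlapping genes cannot be told apart.

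TMPO-AS1 fell most among these RNAs, from 211.6 to 78.7 normalised counts, at -1.43 ± 0.14 in the authors' deposited table. It overlaps TMPO, a nuclear lamina gene that fell by 0.90 ± 0.05 there. H1FX-AS1 and the linker histone gene H1FX stood at -0.94 and -0.93. Of 37 called-lower long noncoding RNAs that overlap their nearest coding gene, 22 (59.5%) had that gene called lower as well, against 31.0% for all 255 overlapping pairs. Without overlap the share was 9 of 28 (32.1%), against 25.3% of 245, so the larger excess was in pairs whose reads may not be told apart. Among those higher by at least 1, the coding gene was called higher in 6 of 12 overlapping pairs (50%, against 21.6% of all 255). Without overlap it was called higher in 4 of 13 (30.8%, against 24.1% of all 245). Of these 25 neighbours, 7 (28%) were called lower, the same as the 28.2% of all 500 neighbours.

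Of 14 long noncoding RNAs with p53 links, 11 were in the authors' deposited table and 9 were called higher. Among all genes 18.3% were called higher, and among all long noncoding genes 14.1%. Only 6 of the 11 reached a base mean of 100. NEAT1, the scaffold of paraspeckles, rose from 11028 to 23203 normalised counts, at 1.07 ± 0.20. MIR34AHG, the host transcript of the p53-induced miR-34a, rose by 1.68 ± 0.12, and PINCR, at 4.22 ± 0.46, stood at only 3.05 normalised counts with DMSO. DINOL, near CDKN1A, was not called, at 1.65 ± 0.84, from a base mean of 3.96.

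Genes of growth and biosynthesis were called lower in part, by small amounts. Abundant genes were called lower more often in general: 35.7% of all genes at base means of 1000 to 3000 and 49.6% at 3000 to 10000, with 23.9% and 19.2% called higher. Of 45 genes of ribosome biogenesis and RNA polymerase I, 33 were called lower and none higher, with a median of -0.27. LYAR and TAF1A, a nucleolar factor and an RNA polymerase I initiation factor, fell by 0.52 and 0.46 in the authors' deposited table. Cytosolic ribosomal protein genes went the other way, with 39 of 84 called higher and 5 lower, at a median of 0.12. RPS27L, at 1.73, was the one ribosomal protein gene higher by at least 1. Of 78 mitochondrial ribosomal protein genes, 38 fell and 2 rose, and of 37 proteasome genes, 22 fell and 1 rose, both with medians near -0.15. Their median base means were 1682 and 3736, so both counts lie not far above the shares of all genes at such levels. The one proteasome gene called higher was the immunoproteasome subunit gene PSMB8, at 0.24. With equal summed levels, 3 cytosolic ribosomal protein genes were lower, 6 mitochondrial ones higher and 2 proteasome genes higher.

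Of 23 cholesterol genes, 16 were called lower and 1 higher, with EBP, a sterol isomerase, at -0.61 ± 0.05 and the sterol sensor INSIG1 at -0.50 in the authors' deposited table. Of 12 fatty acid synthesis genes, 8 fell and 1 rose. None of either list was lower by 1 or more, the medians were -0.16 and -0.21, and the median base means, 2298 and 6055, lie where 35.7% and 49.6% of all genes were called lower. Glycolysis and hypoxia genes were split, with 8 of 29 called in each direction. The called genes ran from -0.40 for the peptide hormone gene ADM to 0.70 for the glucose transporter gene SLC2A3 in the authors' deposited table. Their list had a median base mean of 3042. In the ranges just below and just above 3000, 35.7% and 49.6% of all genes were called lower, and 23.9% and 19.2% higher. The share of this list called lower was thus below that of genes at such levels.

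Of 42 lysosome and vacuolar ATPase genes, 24 were called higher and 4 lower, with a median of 0.15, and of 32 autophagy genes, 14 rose and 2 fell. At base means of 1000 to 3000, where the median members of both lists lie, 23.9% of all genes were called higher and 35.7% lower. Apart from DRAM1 at 1.38, which is itself a p53 target, the autophagosome gene WIPI1 rose by 1.15 and the cargo receptor gene SQSTM1 by 0.83 in the authors' deposited table. Of 22 brakes on PI3K, AKT and mTORC1, 9 were called higher, 7 of them by at least 1, and 3 lower (5 after centring on the median). INPP5D (3.89), PIK3IP1 (2.37) and SESN1 (2.09) led, whereas PHLPP1, an AKT phosphatase, was lower, at -0.59 in the authors' deposited table.

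Of 13 lamina and HMGB genes, 10 were called lower, led by LMNB1, which encodes lamin B1, at -1.03 ± 0.03, whereas LMNA, which encodes lamins A and C, rose by 0.28 ± 0.04 in the authors' deposited table. Of 21 DNA methylation and silencing genes, 16 fell and 3 rose. The median base means of these lists, 6080 and 1488, lie where 49.6% and 35.7% of all genes were called lower. The chromatin remodeller gene HELLS was lowest, at -1.08 ± 0.08, and the de novo methyltransferase gene DNMT3A highest, at 0.59 ± 0.05 there. Of 35 clustered histone genes, whose mRNAs mostly lack a poly(A) tail, 8 were called lower (5 with equal summed levels) and 3 higher. Among all genes 19.6% were called lower and 18.3% higher. Their median base mean was 19.5 and only 10 of the 35 reached 100, whereas 2.54% of all genes at 10 to 30 were called lower and 9.35% higher.

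Inflammatory, interferon and stress genes were called in part, against 18.3% of all genes called higher and 19.6% lower. Of 22 cytokine and NF-kB genes, 9 were called higher and 1 lower. IL1A rose by 1.596 ± 0.17 and CXCL8, a neutrophil chemokine gene, fell by 0.76 ± 0.11 in the authors' deposited table. IL6 and CCL2 were not called. Of 30 interferon-stimulated genes, 14 rose and 2 fell, led by TLR3, a receptor for double-stranded RNA, at 1.52 ± 0.08, whereas IFIT1 fell by 0.55 there. TAP1, the peptide transporter of MHC class I presentation, rose by 0.88 ± 0.04, alongside 7 others of 16 genes, with 2 lower. Of 24 stress and unfolded protein response genes, 13 rose and 5 fell, with ATF3 at 0.90 and SHMT2 at -0.29. EGR2 and EGR1 led 15 of 28 immediate early genes called higher, at 1.83 and 1.04 in the authors' deposited table.

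At the cell surface, 27 of 46 collagen, laminin, matrix and integrin genes were called higher and 4 lower, against 18.3% and 19.6% of all genes. The laminin gene LAMA3, at 13.3 normalised counts with DMSO, and the integrin gene ITGA2 rose by 1.07 and 0.80, whereas the fibrillar collagen gene COL3A1 was at -0.87 and COL8A1 at -1.06 in the authors' deposited table. POSTN was lowest, at -2.50 ± 0.73, from 10.4 to 1.85 normalised counts. Of 33 WNT pathway genes, 16 were called lower, among them the feedback inhibitors RNF43 (-0.90) and AXIN2 (-0.70), and 6 higher, led by WNT11 (1.56). Of 45 ciliary genes, 17 rose and 5 fell, at a median of 0.09.

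**Figure D5:**
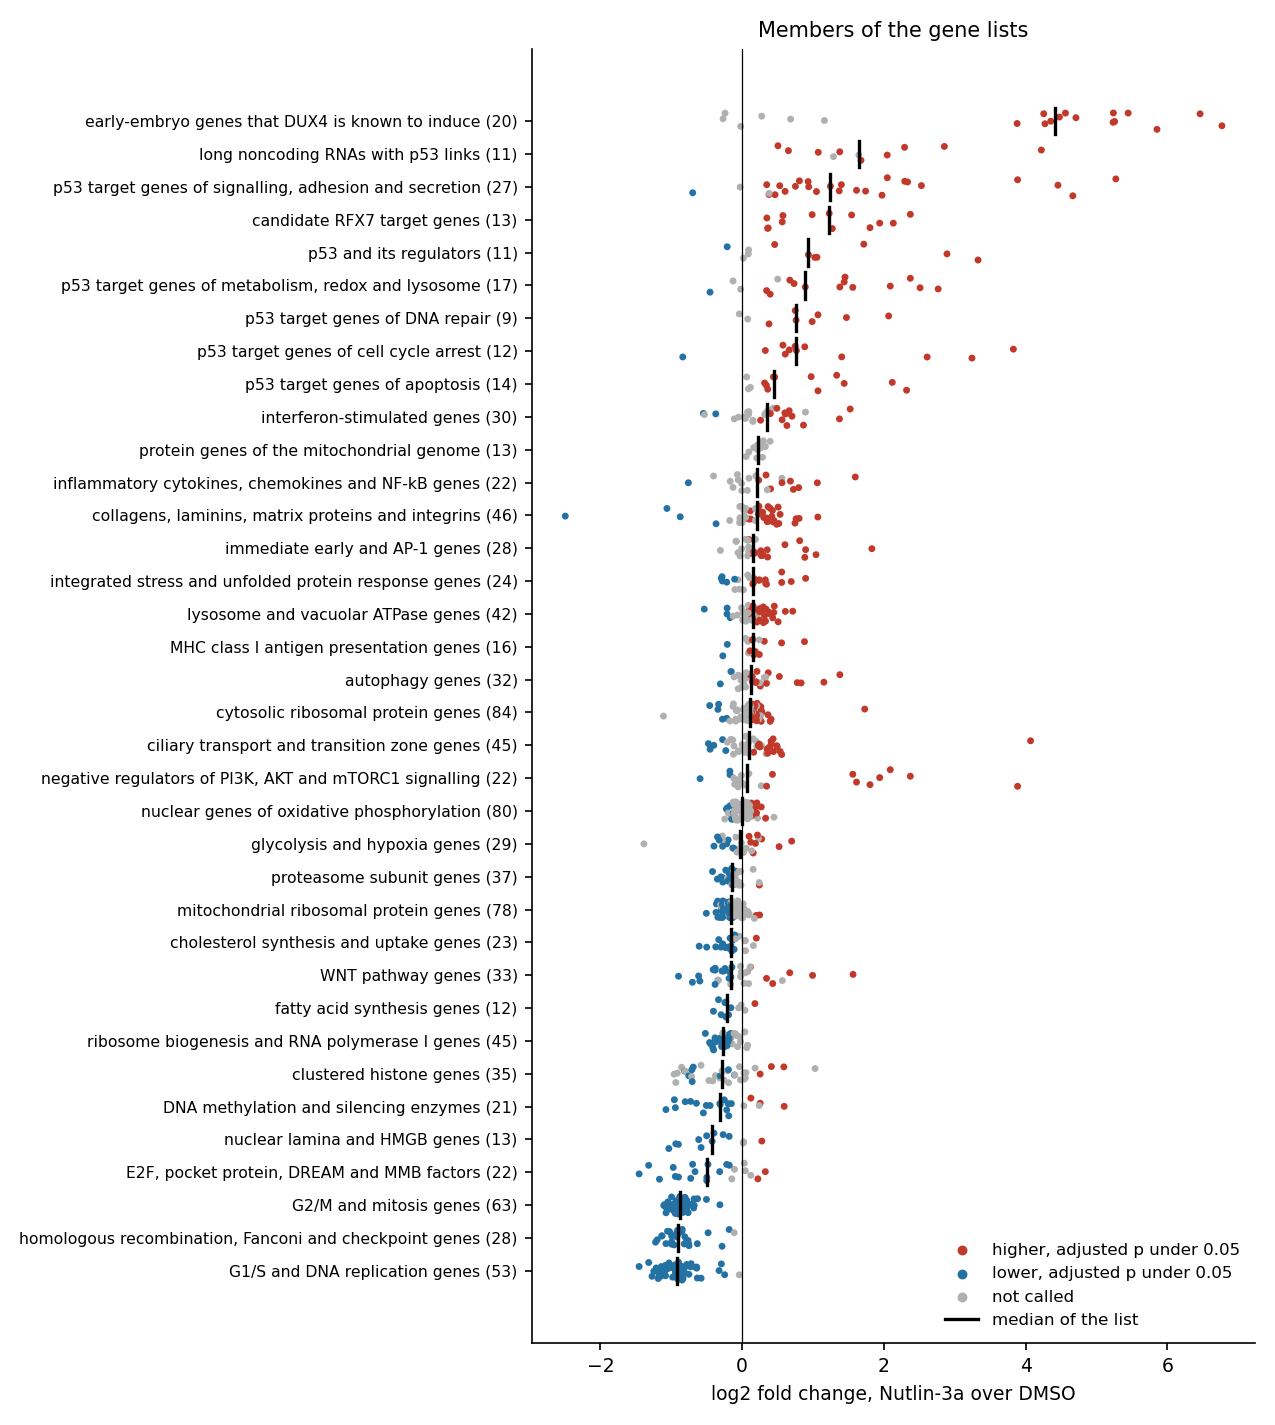
Log2 fold changes of the members of each list (number in brackets), with called-higher genes in red, called-lower genes in blue, others in grey, and the median as a black line. The protein-coding p53 lists have medians from 0.45 to 1.24 and the 3 cell cycle and recombination lists at the bottom have medians from -0.92 to -0.88.

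With RFX7 present, its candidate target genes were part of the response. Its 13 candidate targets were listed with knowledge of the study, so neither their direction nor their difference between the siRNAs is independent evidence. All 13 were called higher, with a median of 1.23. PIK3IP1, an inhibitor of PI3K, rose from 82.0 to 425 normalised counts (2.37 ± 0.14), and MXD4, a MYC antagonist, from 397 to 1742 (2.13 ± 0.08) in the authors' deposited table. RFX7 itself rose by 0.25 ± 0.05 there. In siRFX7 cells, the median of the 13 was 0.25, and all 13 differed between the siRNAs in a test of the difference, from both deposited log2 fold changes and SEs with Benjamini-Hochberg adjustment over 21339 genes. That test called 200 genes (0.937%) in all. Differences were not limited to these genes. The p53 lists had a median of 0.93 with both siRNAs, and 10 of their 87 members differed. Of 116 cell cycle genes 21 differed, the median being -0.89 with the control siRNA and -1.05 with siRFX7. Of 22 cytokine and NF-kB genes 8 differed, and their median was 0.21 with the control siRNA and -0.06 with siRFX7. MDM2 was at 2.76 ± 0.04 in siRFX7 cells, a difference of -0.13 ± 0.06 that was not called (adjusted p = 0.626).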

How the data were processed

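Poly(A) RNA of U2OS cells was sequenced after stranded library preparation, per the labels' protocols. Per the submitters' processing notes, the authors used featureCounts 1.6.5 and DESeq2 1.20.0 and the build hg38; the aligner and the use of strand in counting are not given in the sources used here. The base mean, a signal, is the mean of the authors' normalised counts, per the file headers. The deposited log2 fold changes, their SEs and the Wald statistic, a score, were used unchanged. The deposited p-value and its adjustment followed from these, so a gene was called at the authors' adjusted p under 0.05. No statement on shrinkage was found. Total counts per library were not analysed here; the base means add up to 35311111 normalised counts.

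Group levels were worked out from base mean and log2 fold change; per-kb levels used exon unions of GENCODE 29, in which 99.9% of gene identifiers were found. The difference of the responses used a two-sided normal p from the sum of squared SEs. Scripts (Python 3.11.15, pandas 2.3.3, scipy 1.17.1) were tested on simulated data. The members, the 39 gene lists and the naming rule were chosen with earlier results of these data known, and no set test was run. The rule named CDKN1A, MDM2, RFX7, the 15 highest and 15 lowest coding and 5 and 5 long noncoding genes (called, base mean at least 100), the 10 largest gains and losses, the 5 highest base means, and the 2 highest and 2 lowest called members of each list. Other list members named in the text were picked after their values were seen. Some genes that the rule names are not reported here. Alternatives are in the closing section.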

Additional observations from a re-analysis of the deposited data

Results flagged for a closer look

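The response to Nutlin-3a differed between siRFX7 and siControl cells for 15 of the 185 named genes with a value in both tables, by the test of the difference (adjusted p under 0.05, Benjamini-Hochberg over 21339 genes). Of all genes, 200 (0.937%) differed, and the named genes include RFX7 targets listed with knowledge of the study, so the counts are not comparable. The difference, siRFX7 minus siControl on the log2 scale, was -2.17 for PIK3IP1, -1.79 for H3.Y, -1.44 for MXD4, -0.78 for TSPYL2 and -0.55 for JUNB. Of these, TSPYL2 and JUNB rose in siControl cells and fell in siRFX7 cells, at -0.43 and -0.19 in the authors' deposited table. For CXCL8 the difference was -0.75, for TNFAIP3 -0.42 and for SLC2A3 -0.34. Among the p53-linked genes it was -0.46 for TP53INP1, -0.27 for E2F7, -0.26 for CDKN1A, -0.24 for GTSE1 and 0.26 for RRM2B. It was -0.19 for ACTG1 and 0.5 for FLG-AS1. In all, 13 of the 15 differences were negative. CDKN1A was induced with both siRNAs, at 3.24 ± 0.04 with siControl and 2.98 ± 0.04 with siRFX7 in the authors' deposited tables.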

How the results depend on the processing

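No paired analysis was possible because no value of a single library was analysed here, and leaving out each replicate was not run for the same reason. The count of called genes, 8853, was 4241 with Holm adjustment, 2863 at a change of at least 0.5, 929 at 1 or more, 1028 in a test against a change of 0.5, and 5545 with SEs multiplied by 1.5. In that order, higher genes numbered 1962, 1800, 761, 635 and 2596, and lower genes 2279, 1063, 168, 393 and 2949. At a change of at least 1, 39 p53 target genes were called higher and 30 cell cycle genes lower. The 200 genes whose response differed between the siRNAs became 125 at an adjusted p under 0.01, 51 at a difference of at least 0.5 and 28 with SEs multiplied by 1.5. The p53 element was in 0 promoters with no mismatch and in 28 with 3, a setting chosen after the data were seen. Higher genes were 48.3% of those called, 46.1% after centring on the median and 56.4% with equal summed levels. Of 2030 values of named genes under the alternatives, 1624 kept their side of the threshold and 406 lost it. No direction reversed, but only the centrings alter a log2 fold change, so the other alternatives could not reverse one. Depth per library, the spread within a group and a single deviating library cannot be judged from these values.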
